A study of Mus musculus with 6 samples.

Results

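Cytochrome P450 genes were examined in the olfactory epithelium of mice carrying the OMP-GFP allele. Members were all genes that the array's annotation names alone on a probe set and whose symbol has the form Cyp, a number, a letter and a number. This gave 70 genes on 93 probe sets, of 18194 named genes and 45101 probe sets in all, and the probe set of highest mean stood for each gene. RNA of 3 samples labelled homozygous for OMP-GFP and 3 labelled heterozygous was hybridised to Affymetrix mouse expression arrays, 1 sample per array. All 6 samples carried the allele, there was no wild-type group, and the labels give no age or sex. In this line, as background, a green fluorescent protein sequence stands in place of the coding part of Omp, so that homozygous mice lack olfactory marker protein, while the GFP dose is also higher. The labels do not say whether a sample came from 1 animal or a pool, and p-values measure only the spread between these samples.

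Cytochrome P450 enzymes are haem proteins that insert an oxygen atom into their substrate, with electrons passed on by a reductase or a small iron-sulphur protein. In the nose they sit mainly in the endoplasmic reticulum of sustentacular cells and Bowman glands, where they oxidise inhaled chemicals and odorants, and they are among the best known biotransformation enzymes of this tissue. Members of other families make or break down steroids, bile acids, retinoic acid, vitamin D and fatty acids, many of them in liver, adrenal gland or gonad.

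Signals are the deposited MAS5 values on a linear scale. Median signals per array lay between 147.9 and 163.7, and precision is limited by having only 6 arrays. Several libraries stood apart from their group. At one Omp probe set the homozygous samples 1, 2 and 3 read 5.7, 8.8 and 31.3, against 26.3, 4664 and 9143 in the libraries labelled heterozygous 1, 2 and 3. At the other Omp probe set the groups overlapped, with 7918.5, 8148 and 8774 on homozygous and 8709, 7968 and 8318.5 on heterozygous arrays. The first heterozygous library read like the homozygous ones at the first-named probe set, and it is not known here whether the probes fall inside the exchanged part of the gene. The myelin gene Mbp read 7269 in the library labelled heterozygous 1, and 655 to 1038 on the other 5 arrays. The neuronal nuclear gene Rbfox3 read 791 in heterozygous 3, and 49.5 to 184 on the others. The female transcript Xist read 112 in homozygous 1, and 5727 to 10210.3 on the others. The Y-linked gene Eif2s3y read 1484.7, 1059.7 and 8 on homozygous and 435.1, 32.8 and 532.6 on heterozygous arrays. Homozygous 2, heterozygous 1 and heterozygous 3 thus had clear signals at both, and the sex-linked signals were uneven between arrays within each group. The sustentacular list, with 8 of 9 markers represented, all 8 above the dimness filter described below, had summed signals of 75039 to 77758 on homozygous and 70769 to 77474 on heterozygous arrays, the lowest in heterozygous 3. All 7 hepatocyte markers were dim, with summed signals of 222 to 301 on homozygous and 203 to 281 on heterozygous arrays, and albumin (Alb) did not exceed 79.9. In bulk tissue, fewer cells of a type and less RNA per cell cannot be told apart.

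The P450 signal was concentrated in a few genes. Only Cyp2g1 and Cyp2f2, 2 of the 70, had mean signals above 10000, and 7 members exceeded 1000. In contrast 47 of 70, or 67.1%, lay below 100, where 31.4% of all named genes did. The median of the members' mean signals was 41.0, and that over all named genes was 335. Probe sets bind their targets with unequal strength, so this order is one of signals and not of transcript amounts.

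**Figure D1:**
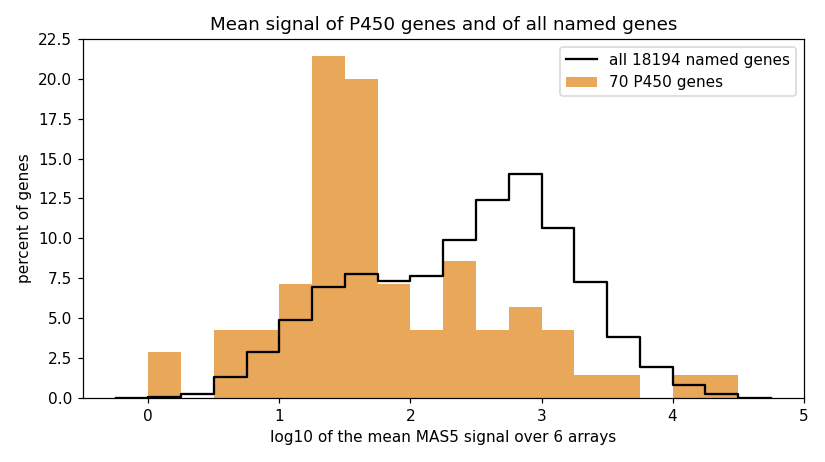
Distribution of the mean signal over 6 arrays (horizontal axis, log10 scale) for the 70 P450 genes (filled bars) and all 18194 named genes (line), as percent of genes in each bin. Most P450 genes lie in the dim part, and a tail reaches the brightest bins with Cyp2g1 and Cyp2f2.

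Cyp2g1, a P450 known as nearly confined to the olfactory mucosa and active on steroids and odorants, was the brightest member. It read 17796, 18263 and 18297 on homozygous arrays, against 18447, 17990.1 and 18562 on heterozygous ones. These values had a coefficient of variation of 1.57% over the 6 arrays, the groups overlapped, and the gene had rank 41 by signal among all named genes. Cyp2f2, which activates naphthalene in airway epithelium, read 16407, 17872 and 17457 on homozygous arrays, against 17572, 17008 and 16183 on heterozygous ones, with a coefficient of variation of 3.95% and rank 52. Cyp1a2, an oxidiser of aromatic amines and caffeine best known from liver, read 4414, 4996 and 5387 on homozygous arrays, against 5632, 4872 and 3747 on heterozygous ones. Its groups overlapped too, and its 14.1% coefficient of variation was set by the spread of the heterozygous arrays, which held both the highest and the lowest value. A probe set annotated to Cyp2a5 and Cyp2a4 together lay outside the rule and cannot be assigned to either gene. It read 25244 ± 944 on homozygous and 24718 ± 751 on heterozygous arrays (SD, n = 3 each), a higher signal than at any member. Other P450 probe sets outside the rule, among them those of Cyp51 and Cyp4a12a, are not described here and do not enter the counts of members.

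For the comparison, probe sets were kept where their mean log2 signal was at or above the median of all probe sets. This kept 20 of the 70 members, or 28.6%, where 62.8% of named genes were kept. The dimmest kept member was Cyp1b1, with a mean signal of 181.7, and the brightest left out was Cyp7b1, an oxysterol hydroxylase, with 152.2.

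The members were then sorted by role. Enzymes of foreign compounds, the members of families 1 to 3 without the vitamin D enzyme Cyp2r1, made up 42 of the 70 members, 11 of the 20 kept and 5 of the 7 above 1000. Beside the 3 genes above these were Cyp2e1, which oxidises ethanol and small solvents, with a mean of 1280.0, and Cyp1a1, the aryl hydrocarbon receptor target that attacks polycyclic aromatics, with 1009. Cyp2j6, of a subfamily that includes arachidonic acid epoxygenases, had 611, the epithelial P450 Cyp2s1 had 567 and Cyp3a13 had 549. Subfamilies that are large in liver were dim: none of 11 Cyp2c and none of 8 Cyp2d genes was kept, their brightest being Cyp2c68 at 69.4 and Cyp2d22 at 72.1. Of 5 Cyp3a genes only Cyp3a13 was kept, and the next in signal read 27.3.

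Among the 11 members of the fatty acid family Cyp4, 5 were kept. Cyp4v3, a fatty acid hydroxylase whose human counterpart is mutated in a crystalline corneoretinal dystrophy, was the brightest at 2033. Cyp4b1, which activates furan toxins and hydroxylates fatty acids, had 972 and Cyp4f15 had 684. Of the 6 sterol and bile acid enzymes 2 were kept, Cyp27a1, the mitochondrial hydroxylase of the sterol side chain, at 551 and Cyp39a1, an oxysterol hydroxylase, at 511. The brain cholesterol hydroxylase Cyp46a1 read 147.3 and the bile acid enzyme Cyp8b1 21.6. Of 5 vitamin D and retinoic acid enzymes only Cyp26b1, which degrades retinoic acid, was kept, at 269, and Cyp24a1, which degrades active vitamin D, read 18.8. None of the 5 steroid-making enzymes was kept, and their mean signals lay between 24.4 for Cyp17a1 and 146.5 for the side-chain cleavage gene Cyp11a1, with Cyp21a1 at 50.2. Cyp20a1, whose substrate is not well known, was bright at 1429.

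**Figure D2:**
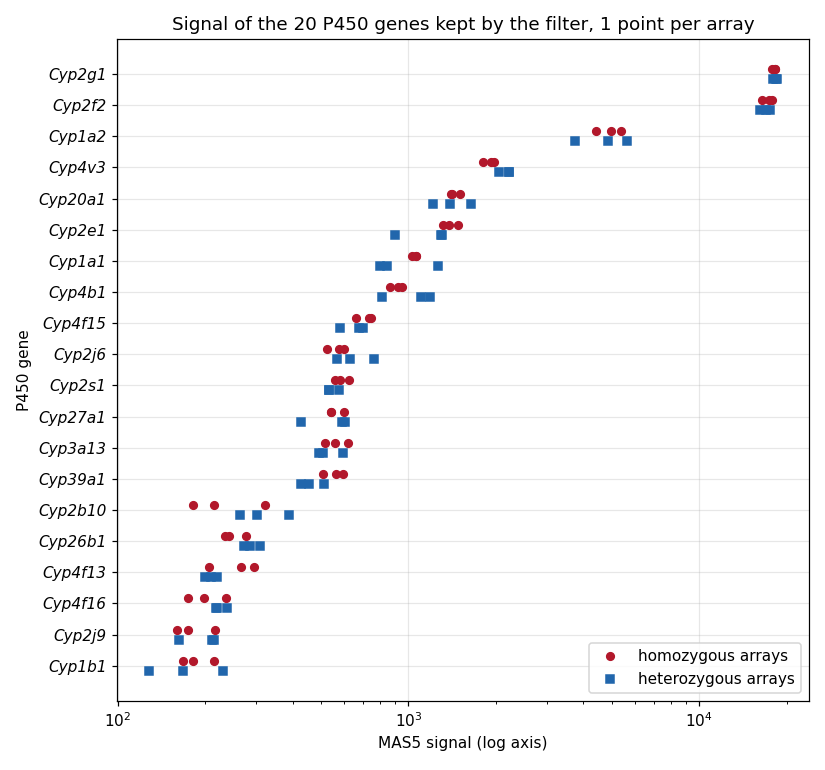
MAS5 signal (horizontal log axis) of the 20 kept P450 genes, with a circle for each homozygous and a square for each heterozygous array, 3 of each. Cyp2g1 and Cyp2f2 stand alone above 10000, and circles and squares of most genes intermingle.

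Bright and dim members lie side by side in the genome. In the RefSeq gene order of assembly GRCm38.p6, used here only for which genes neighbour each other, a cluster on chromosome 7 holds 13 coding Cyp2 genes of subfamilies a, b, f, g, s and t, among them 8 members, with 5 other coding genes between them. In gene order the members' mean signals were 567 for Cyp2s1, 279 for Cyp2b10, 29.4 for Cyp2b13, 31.6 for Cyp2b9, 37.9 for Cyp2b19, 18226 for Cyp2g1, 24.6 for Cyp2a12 and 17083 for Cyp2f2. Thus the brightest pair of members stood on either side of one that was dim on every array, and 4 of the 8 were not kept. Cyp2a4 and Cyp2a5, named together on the still brighter probe set given above, also lie in this cluster, and Cyp2a5 is the next P450 gene after Cyp2g1. Close paralogs may share probe sequence, which the files do not show, so levels of single genes in this cluster are uncertain to that extent.

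**Figure D3:**
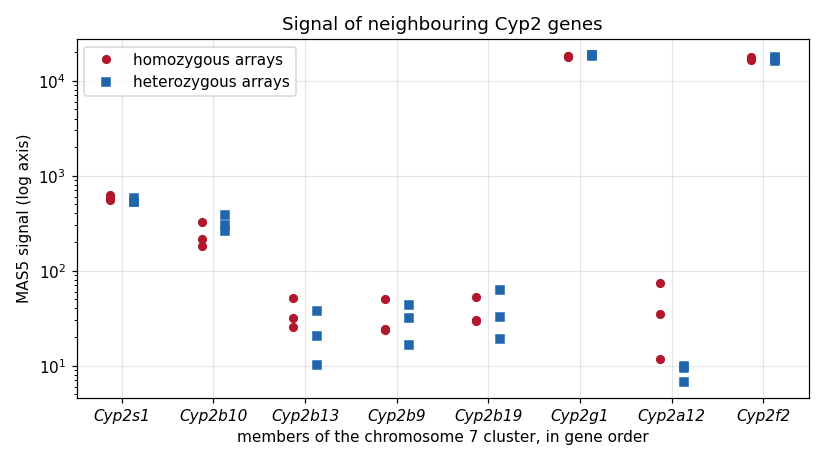
MAS5 signal (vertical log axis) of the 8 members of the chromosome 7 Cyp2 cluster in gene order, with circles for homozygous and squares for heterozygous arrays. Cyp2g1 and Cyp2f2 read above 16000 on every array, and Cyp2a12, the member between them, stayed below 75.

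Cyp1a1 and Cyp1a2 are next to each other on chromosome 9 and point away from each other. Cyp1a1 read 1027, 1061 and 1062 on homozygous arrays, against 1264, 845 and 797 on heterozygous ones. Both genes therefore had their highest value in the library labelled heterozygous 1 and their lowest in heterozygous 3, with the homozygous arrays between. This was not particular to the pair. The median deviation from the mean was also highest in heterozygous 1 and lowest in heterozygous 3 over the 20 kept members (0.04 and -0.07 on the log2 scale), over all kept genes (0.01 and -0.02) and over the mature neuron markers (0.16 and -0.27). Ahr, the aryl hydrocarbon receptor, did not show this order and read 1290.3, 1401 and 1438 on homozygous and 1390.1, 1318 and 1505 on heterozygous arrays. The start regions of this pair are shown because the genes had the same array highest and the same array lowest. The windows hold 250 bases before and 50 after the RefSeq start on GRCm38.p6, chr9:57697363-57697662 on the plus strand for Cyp1a1 and chr9:57683606-57683905 on the minus strand for Cyp1a2. Capitals mark the TATA box letters TATAAA and the core of the aryl hydrocarbon receptor element, GCGTG, searched on both strands.
Cyp1a1: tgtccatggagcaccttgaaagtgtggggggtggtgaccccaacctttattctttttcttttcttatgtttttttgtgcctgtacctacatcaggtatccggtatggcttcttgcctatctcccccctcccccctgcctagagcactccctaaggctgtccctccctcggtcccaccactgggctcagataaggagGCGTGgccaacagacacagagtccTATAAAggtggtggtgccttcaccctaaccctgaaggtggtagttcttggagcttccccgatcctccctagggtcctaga
Cyp1a2: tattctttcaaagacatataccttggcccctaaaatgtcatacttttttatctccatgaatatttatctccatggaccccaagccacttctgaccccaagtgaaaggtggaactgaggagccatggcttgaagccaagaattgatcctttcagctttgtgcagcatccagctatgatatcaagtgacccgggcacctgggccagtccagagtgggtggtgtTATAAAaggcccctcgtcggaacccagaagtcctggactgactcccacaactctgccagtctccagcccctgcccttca
Each window holds TATAAA once, 30 bases before the start in Cyp1a1 and 29 before it in Cyp1a2. GCGTG was found in the Cyp1a1 window only, 54 bases before the start. Of all 32851 windows of this length, 13.6% hold TATAAA and 32.4% hold GCGTG on either strand, and of the 58 windows that match 51 of the 70 members by gene ID, 36.2% and 24.1% hold them in that order. A match is a description of the letters and not a site.

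No P450 gene passed the comparison of homozygous with heterozygous arrays. The study set out to learn what loss of olfactory marker protein does to gene expression in this tissue. The test was limma on log2(signal + 38.8) across all 22514 kept probe sets with Benjamini-Hochberg adjustment at 0.05. Of the 20 kept members 0 were called, where 0% of the 11425 kept genes and of all kept probe sets were, and the lowest adjusted p of a member was 0.859. At an unadjusted p under 0.05 there were 2 members, or 10%, beside 4.81% of kept genes. As homozygous minus heterozygous log2 signal, the median difference of the 20 was 0.05 and that of all kept genes was -0.00041, with 12 members above 0 and 8 below. Shifting each array to the same median made this split 10 and 10, and leaving out heterozygous 3 made it 9 and 11. Separate ranges in the groups were seen for 2 of the 20, or 10%, and for 10.3% of kept genes. The median size of a difference was 0.13, beside a median SE of 0.12, and the largest was -0.37. Over all kept genes the median size was 0.074 and the median SE 0.10.

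Among the members described first, the intervals were narrow. Cyp2g1 differed by -0.02 ± 0.05 (log2, SE), with a 95% interval of -0.12 to 0.09, and Cyp2f2 by 0.03 ± 0.06, with an interval of -0.10 to 0.15. As ratios of homozygous to heterozygous signal these intervals run between 0.918 and 1.06 for Cyp2g1 and between 0.935 and 1.11 for Cyp2f2. Cyp1a2 differed by 0.07 ± 0.13, with a wider interval of -0.22 to 0.36. It differed by -0.09 when heterozygous 3 was left out, and by 0.20 when the library labelled heterozygous 1 was. Cyp1a1 differed by 0.14 ± 0.15, and by 0.02 and 0.34 without these libraries in the same order. Without heterozygous 2 Cyp1a1 differed by 0.06, and Cyp1a2 differed by 0.0032 without homozygous 3 and 0.15 without homozygous 1. The size of both differences, and the sign of that of Cyp1a2, depended on single arrays.

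Lower values in homozygous samples were seen for Cyp4v3, the member of lowest unadjusted p. It read 1976, 1931 and 1803 on homozygous arrays, against 2222, 2215 and 2053 on heterozygous ones. All 3 homozygous values lay below all heterozygous ones, by a log2 difference of -0.18 ± 0.07 (SE) with an unadjusted p of 0.033 and a limma adjusted p of 0.859. Its other probe set differed by -0.11, and there the groups overlapped, with 911, 895 and 899.9 on homozygous and 904, 1049 and 984 on heterozygous arrays. Cyp2b10, a target of the constitutive androstane receptor, had the largest difference of the 20, -0.37 ± 0.19, with 322, 182 and 215 on homozygous and 301, 389 and 264 on heterozygous arrays. Homozygous 1 lay among the heterozygous arrays here, and the difference was -0.58 without it, -0.22 without homozygous 2 and -0.24 without heterozygous 2. The gene's probe sets disagreed. Another differed by -0.57 ± 0.23 (limma adjusted p 0.859), and there the groups did not overlap. It read 90.2, 177 and 165.1 on homozygous and 179.1, 205.7 and 310.3 on heterozygous arrays. The last probe set differed by 0.0074. Cyp2j6 differed by -0.18 ± 0.12 (-0.02 at its other probe set), Cyp26b1 by -0.18 ± 0.12 and Cyp4b1 by -0.16 ± 0.13, the last by -0.32 without heterozygous 3, -0.05 without heterozygous 2 and -0.10 without heterozygous 1. Without the library labelled heterozygous 1 Cyp2j6 differed by -0.07.

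Higher values in homozygous samples were seen for Cyp2e1, which read 1484, 1379 and 1319.8 on homozygous arrays, against 1294, 1302 and 901 on heterozygous ones. The groups did not overlap, but the lowest homozygous and the highest heterozygous array were 1319.8 and 1302, and heterozygous 3 stood below all others. The log2 difference was 0.27 ± 0.13 (SE; limma adjusted p 0.888), and 0.10 without heterozygous 3. Cyp39a1 read 598, 508 and 566 on homozygous and 456, 427 and 512 on heterozygous arrays, a log2 difference of 0.24 ± 0.11 with an unadjusted p of 0.045 and a limma adjusted p of 0.869. Homozygous 2 and heterozygous 3 crossed by a few units, and the difference was 0.19 to 0.31 with any 1 array left out. Cyp4f13, a leukotriene and fatty acid hydroxylase family member, differed by 0.23 ± 0.14, Cyp4f15 by 0.12 ± 0.10 and Cyp2s1 by 0.09 ± 0.09. Cyp3a13, Cyp27a1 and Cyp20a1 differed by 0.08, 0.06 and 0.03, each within its SE. Cyp4f13 differed by 0.36 without homozygous 2 and 0.14 without homozygous 1, Cyp4f15 by 0.04 without heterozygous 3 and Cyp2s1 by 0.05 without homozygous 3. Leaving out homozygous 2 gave 0.02 for Cyp3a13, and leaving out heterozygous 1 gave 0.16.

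**Figure D4:**
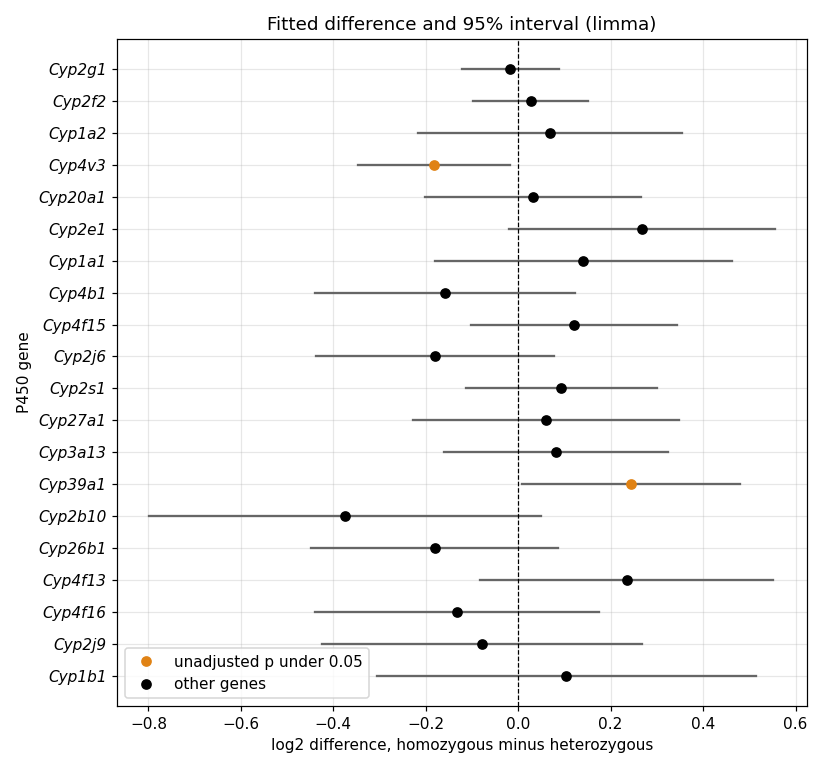
Fitted log2 difference, homozygous minus heterozygous (horizontal axis), with its 95% interval for the 20 kept P450 genes. Intervals of all genes but Cyp4v3 and Cyp39a1, drawn in orange, include 0. The interval of Cyp2g1 is the narrowest of the 20 and that of Cyp2b10 the widest.

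The 50 dim members were left out of the comparison as reported and are given mainly as signals. Over all 70 members the groups did not overlap for 6, or 8.57%, and for 10.3% of all named genes. The 4 of these that were dim were Cyp17a1, Cyp11b1, Cyp2a12 and Cyp2c50. Cyp17a1, which makes androgen precursors, read 42.1, 63.2 and 22.1 on homozygous arrays, against 6.9, 7.0 and 5.1 on heterozygous ones. Cyp11b1, of the last step of glucocorticoid synthesis, read 60.6, 48.5 and 42.2 on homozygous and 32.0, 19.7 and 16.6 on heterozygous arrays. All heterozygous values of both lie below the offset of 38.8, and with no filter Cyp17a1 differed by 0.82 ± 0.21 and Cyp11b1 by 0.54 ± 0.18 (log2, SE), with unadjusted p of 0.0031 and 0.017 and a limma adjusted p of 0.905 for both. Of the markers of steroid-making cells, 5 of 6 were represented and none was kept. Their summed signals were 169 to 292 on homozygous and 186.5 to 221 on heterozygous arrays, Star, the cholesterol carrier of steroid synthesis, read 92.5 to 142.0 on homozygous and 113.9 to 126 on heterozygous arrays, and the receptor gene Mc2r did not exceed 23.7. Hsd17b3, the testis enzyme that makes testosterone, was the one of the 5 whose groups did not overlap, with 69.6, 77.3 and 47.0 on homozygous and 27.7, 31.0 and 12.3 on heterozygous arrays. The part of these markers in the values of Cyp17a1 and Cyp11b1 was not tested. Cyp2a12 read 11.8, 35.0 and 74.5 on homozygous and 9.8, 6.8 and 9.5 on heterozygous arrays. Cyp2c50 read 5.0, 5.0 and 5.1 on homozygous and 7.5, 11.9 and 6.0 on heterozygous arrays.

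The arrays were also compared with each other. Heterozygous 3 held the lowest value for 8 of the 20 kept members, more than any other array, and each of the other arrays for 1 to 3. The same count over all kept genes is not given here, so it is open whether this share is particular to P450 genes. Its median deviation from the members' means was -0.07 on the log2 scale, and -0.15 over the 12 brightest members, where the other arrays lay between -0.02 and 0.07. The median over all kept genes was -0.02 in that array. Cyp2e1, Cyp1a2, Cyp27a1 and Cyp1a1 lay 0.47, 0.35, 0.33 and 0.31 below their means there, while Cyp1b1 and Cyp20a1 lay 0.31 and 0.21 above. On the same array the sustentacular list lay 0.09, the mature neuron list 0.27 and the blood list 0.43 below its mean. The median of the myelin and brain list lay 0.56 above, but its genes went different ways. Rbfox3 and Cplx1 read 791 and 738 there, their highest on any array, while the myelin gene Pmp22 read 851, its lowest. Mbp read 1038, within its range of 655 to 7269 over all arrays. The part of these markers in the P450 values was not tested. Without heterozygous 3 the groups did not overlap for 8 of 20 members, or 40%, beside 25.1% of kept genes, and the median difference was -0.01.

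**Figure D5:**
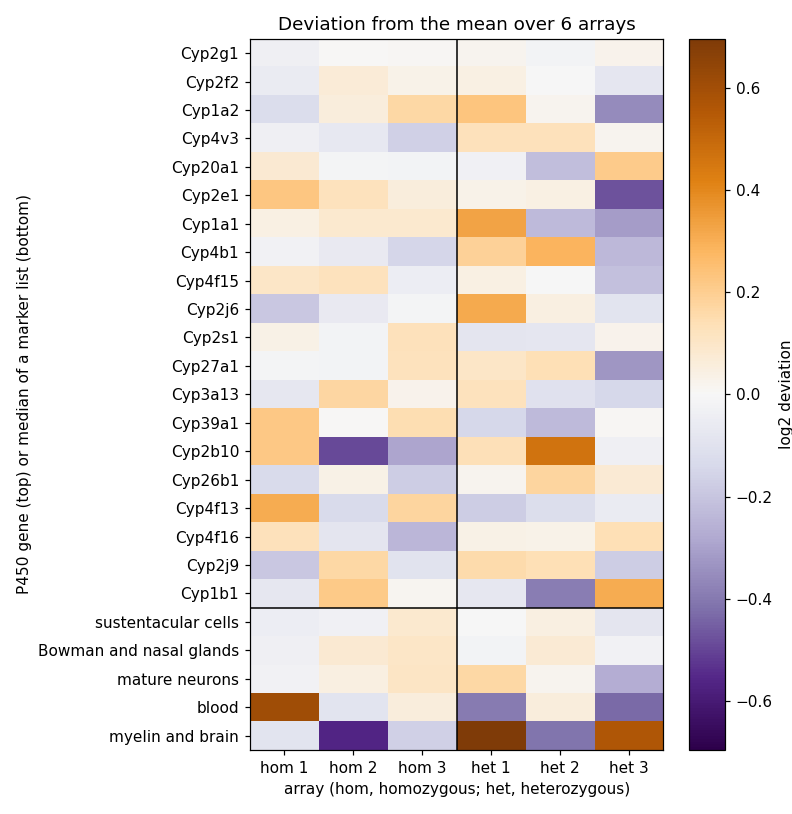
Log2 deviation of each array from the mean over 6 arrays for the 20 kept P450 genes (upper rows) and, as the median of kept markers, for 5 marker lists (lower rows), with homozygous arrays on the left. Heterozygous 3 has the lowest value in 8 P450 rows. The myelin and brain list is highest in the libraries labelled heterozygous 1 and heterozygous 3, through different genes. Mbp and Pmp22 read 7269 and 4899 in heterozygous 1, and Rbfox3 and Cplx1 read 791 and 738 in heterozygous 3.

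The proteins that serve P450 enzymes were mostly bright and were not called either. Of 14 listed partners 11 were represented and 10 kept, with 0 called in either direction, and their median difference was -0.02. Cyb5a, the cytochrome b5 that donates electrons to many microsomal P450 enzymes, read 12060.4, 12188 and 12748 on homozygous and 13380.3, 12752 and 12638 on heterozygous arrays. Pgrmc1, a membrane haem protein that binds P450 enzymes, read 11619, 11267 and 12113 on homozygous and 12050.1, 12205 and 12181 on heterozygous arrays. The groups overlapped at both. The members of lowest p were Cyb5b at -0.15 ± 0.09 and Cyb5r1, a cytochrome b5 reductase, at 0.13 ± 0.09 (log2, SE). The P450 reductase itself was not analysed here.

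All 7 represented haem synthesis genes of 8 listed were kept, with 0 called and a median difference of 0.0026. Alas1, the first and limiting enzyme of the pathway outside red cells, read 3521, 3593 and 3587 on homozygous and 3539, 3870.4 and 3295 on heterozygous arrays. Cpox, coproporphyrinogen oxidase, alone of the 7 had separate ranges in homozygous and heterozygous samples, a feature seen in 10.3% of all kept genes. It read 364, 265 and 348 on homozygous and 435, 404 and 425 on heterozygous arrays. Its log2 difference was -0.35 ± 0.13 (SE), with a limma adjusted p of 0.859. Urod differed by -0.02 and Uros by 0.07.

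Of 19 listed receptors and factors known to control P450 genes, 18 were represented, 10 kept and 0 called, with a median difference of 0.0016. The stress factor Nfe2l2 and the liver-enriched factor Cebpb were the brightest, and they differed by -0.03 and 0.01. Vdr, the vitamin D receptor, differed by 0.24 ± 0.14 and Cebpa by -0.13 ± 0.09. The xenobiotic receptors best known from liver were dim, Nr1i2 at no more than 50.9 and Nr1i3 at no more than 8.3 on any array. Of 7 flavin monooxygenase and epoxide hydrolase genes, which also oxidise or detoxify inhaled compounds, 6 were represented, 5 kept and 0 called, with a median of -0.0057. Ephx1, the microsomal epoxide hydrolase that acts on P450 products, read 7036, 6692 and 6050.1 on homozygous and 6747, 7086 and 5222 on heterozygous arrays, lowest again in heterozygous 3. Fmo2 differed by 0.03 and Fmo1 by -0.06.

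Markers of the cell types known to hold nasal P450 enzymes were compared in the same way. Of the 8 kept sustentacular markers 0 were called, 4 lay above 0 and 4 below, and the median was -0.0032. Among them Cbr2, a carbonyl reductase, differed by 0.03, Sult1c1, a sulphotransferase, by 0.12, and Ermn by -0.08. Of 6 gland markers 5 were represented and kept, 0 were called, and all 5 lay above 0 with a median of 0.06. Bpifb9b differed by 0.0014, Gpx6 by 0.06 and Bpifb3 by 0.15. The respiratory list had 6 of 6 represented, 5 kept and 0 called. Of the kept ones 4 lay above 0 and 1 below, with a median of 0.04. Its Reg3g and Ccdc39 differed by 0.18 and 0.21 and Tekt1 by 0.0040. The mature neuron list had 7 of 10 represented, 6 kept, 0 called and a median of 0.14, and its summed signal was 52791 to 56700.1 on homozygous and 43062 to 58232 on heterozygous arrays. Red cell and neutrophil markers, 5 of 6 represented and all 5 kept, had 0 called and a median of 0.48, with summed signals of 3863 to 6687 on homozygous and 3198 to 4443 on heterozygous arrays. Their part in the P450 values was not tested.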

How the data were processed

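The authors deposited 1 linear intensity per probe set and array, made with MAS5 per the submitters' processing notes. Its version and options are not stated in the sources used. Arrays already shared a 2% trimmed mean of 500.0 and were left at that scale. No detection calls entered. Probe sets naming 1 gene numbered 34958, those naming several 932 and those naming none 9211, and symbols were updated through a RefSeq table (GRCm38.p6). Values were analysed as log2(signal + 38.8), an offset at the 25th percentile of the pooled values, which understates differences of dim genes. Of 45101 probe sets, 64 controls were set aside and 22514 at or above the median were tested with limma (version 3.58.1, R 4.3.3; lmFit, eBayes with trend), with 4 residual and 6.68 prior degrees of freedom. The test was tested on simulated data, but no outcome is given here and no error rate is drawn from it. No 2 arrays shared more than 101 identical values.

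Members and lists were chosen with earlier results of these data known. The genes named were the 12 brightest members, the 5 higher and 5 lower of lowest p among those kept, the brightest of each family and known nasal P450 genes, and of other lists the 2 of lowest p and the 2 brightest. Members of the chromosome 7 cluster, leading genes of subfamilies, dim members without overlap, Hsd17b3, Ahr, Nr1i2, Nr1i3 and the markers of libraries that stood apart were named after their values were seen. The alternatives were other offsets, scalings, filters, variance models and probe set choices, a replicate block and each array left out.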

Additional observations from a re-analysis of the deposited data

How the results depend on the processing

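No P450 gene was called under any of the 16 alternatives. The count over all probe sets, 0 in the comparison as reported, was 1 with the pooled-median offset and 0 to 25 with 1 array left out, the 25 without the library labelled heterozygous 1 and the 1 without homozygous 2 and without homozygous 3. The median difference of kept members, 0.05, was 0.0034 with arrays shifted to a common median and between -0.0062 and 0.073 with 1 array left out, lowest without heterozygous 3. Members whose groups did not overlap, 2 as reported, numbered 6 with no filter, 1 with probe sets free of shared-probe suffixes and 3 to 8 with 1 array left out, where 17.4% to 25.1% of kept genes did not overlap either. Of 262 alternative values for the 17 named kept members, 254 kept their sign and their side of the threshold and 8 changed sign: Cyp2f2 was -0.015 with a common median and -0.0045 without heterozygous 3, Cyp20a1 -0.011 with a common median, -0.072 without heterozygous 2 and -0.14 with the mean of all its probe sets, Cyp1a2 -0.091 and Cyp27a1 -0.090 without heterozygous 3, and Cyp2b10 0.0074 without shared-probe suffixes. With 1 array left out Cyp2f2 lay between -0.0045 and 0.063, Cyp20a1 between -0.072 and 0.14, Cyp1a2 between -0.091 and 0.20 and Cyp27a1 between -0.090 and 0.15. The cause was not tested. Samples share only replicate numbers: same-numbered samples deviated with correlations of 0.016, -0.12 and -0.047, no number had both its samples correlate best with each other, and with the replicate block 0 probe sets and 0 P450 genes were called and the median was 0.05. Signals near the offset of 38.8 limit what can be said of the 50 members left out by the filter.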
